A study of Mus musculus with 12 samples.

Results

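The genes described here encode the proteins of the cytosolic ribosome and their close relatives in RAW264.7 cells, a mouse macrophage cell line, after exposure to vesicles loaded with 1 of 4 microRNA mimics. The members were chosen by symbol alone: protein-coding genes whose symbol starts with Rpl or Rps followed by a digit, together with Rplp0, Rplp1, Rplp2 and Rpsa, without the S6 kinase genes (Rps6k) and without names holding -ps. Of 86 such genes, 83 had at least 10 estimated counts in at least 3 of the 12 libraries and were taken as members, among 13880 genes that passed the same filter. The muscle form Rpl3l reached 10 counts in 1 library, at 0 to 10 counts, and the germline-linked retrogenes Rpl10l and Rpl39l held 0 or 1 count in each library. The members comprise 31 genes of the small (40S) subunit, 46 of the large (60S) subunit and 6 relatives, namely Rpl7l1, Rpl22l1, Rpl36al, Rps27l, Rps27rt and Rps19bp1. The last of these encodes a binding partner of RPS19 and not a structural protein of the ribosome.

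Poly(A) RNA was sequenced from cells incubated for 48 h with 3 µg/ml of extracellular vesicles (EVs) from MS-1 cells, a mouse endothelial line, loaded by electroporation with a microRNA mimic. The control mimic gave ctrl-EVs, and the loaded groups, named for their mimic and always given in this order, are miR-142-5p-EVs, next miR-183-5p-EVs and last miR-222-3p-EVs. The control is given in the methods as cel-miR-67, a nematode microRNA. All 4 groups shared the vesicle source, the electroporation and the medium with vesicle-depleted serum, no group lacked vesicles, and both lines are single established lines. Each group had 3 libraries that the labels number 1 to 3; what the number stands for is not stated, and neither is whether libraries came from separate cultures. The methods hold a general statement on repeating experiments that is not tied to these libraries, so p-values measure the spread between these libraries, which may be technical. Libraries are named below by vesicle load and number. They held between 16294611 and 22974853 estimated counts, with 16294611 to 18927524 in number 2 libraries and 18990222 to 22974853 in the others. All 7 macrophage markers read had counts in all 12 libraries, with Cd68 (321 to 416 TPM) and Ptprc (201 to 290.0 TPM) the highest. The lowest was Adgre1, at 3.33 to 8.58 TPM, near the highest endothelial markers. Of 6 endothelial markers Cldn5 was at 0 in every library. Pecam1, the highest in the median, lay between 2.36 and 4.14 TPM, and Vwf reached 4.73 TPM.

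As background, each ribosome contains a single copy of most of these proteins, so their mRNAs are made in similar molar amounts and are among the most abundant in growing cells. Nearly all begin with a 5′ terminal oligopyrimidine (TOP) tract, a C at the cap followed by an unbroken run of C and T, through which mTORC1 and the cap-binding protein LARP1 control their translation and stability. Their intronless reverse-transcribed copies are the most numerous family of processed pseudogenes in mammals, which makes reads hard to assign to a parent gene.

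Start sequences were available for 63 of the 83 members (74 windows of 300 bases, RefSeq, GRCm38.p6). Below are 30 bases around the annotated start of 4 members that open with a TOP tract and of 2 relatives that do not. The windows run 5′ to 3′ from 10 bases before the start, and capitals mark the tract from the first transcribed base. Rps6 is the substrate of S6 kinase, Rpl38 is a large subunit protein known from vertebral patterning, Rpl15 binds 28S rRNA and Rplp2 is a stalk protein. Rpl7l1 and Rps19bp1 are the relatives whose levels set them apart below. Rpl12, Rpl37a, Rps12 and Rplp0 also had no tract at the annotated start, so the windows do not separate these relatives from the family.
Rps6 (chr4:86857348-86857377, minus strand): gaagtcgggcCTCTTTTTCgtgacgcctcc
Rpl38 (chr11:114668570-114668599, plus strand): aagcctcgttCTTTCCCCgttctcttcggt
Rpl15 (chr14:18270967-18270996, minus strand): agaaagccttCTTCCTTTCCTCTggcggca
Rplp2 (chr7:141447641-141447670, plus strand): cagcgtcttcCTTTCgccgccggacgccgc
Rpl7l1 (chr17:46782637-46782666, minus strand): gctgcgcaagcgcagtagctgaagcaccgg
Rps19bp1 (chr15:80264287-80264316, minus strand): cggaagtagctcgccgcgtgtgggcggggc

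A tract of C plus at least 4 pyrimidines stood exactly at an annotated start in 14 of 63 members (22.2%) against 2.84% of the 10331 tested genes with a window. Annotated starts can miss the used start by a few bases, so 22.2% is a count of exact annotations and not of TOP mRNAs. Anywhere in the window, on either strand, CCGGAAG, the core bound by ETS factors such as GABPA, occurred in 39.7% of members and 19.5% of genes, AAGATGG, a YY1 core, in 15.9% and 8.46%, and CTCTTTC in 28.6% and 8.62%. TATAAAA occurred in 3 of the 63 members (4.76%) and in 3.42% of genes. These are letter matches, and binding was not measured.

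The members were among the most abundant transcripts of the cells. Summed over the 83 genes they took 16.2% to 19.9% of all TPM (a transcript's length-scaled share of its library), or 18.1% ± 1.39 (SD, n = 12). The median member lay at 1967 TPM (quartiles 988 and 3245) against 17.5 for the median tested gene, and 61 of 83 members exceeded 1000 TPM. At the top stood Rps24 at 6229 ± 681 TPM (SD, n = 12), Rps27rt at 6079 ± 649.9 TPM and Rpl32 at 5419 ± 766 TPM. At the bottom stood Rps2 at 15.1 ± 2.10 TPM, Rps19bp1 at 35.7 ± 6.36 TPM and Rps18 at 63.6 ± 4.70 TPM. Rps2 and Rps18 encode proteins that every small subunit carries, and their low values go with reads assigned elsewhere.

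For 16 of 83 members, more reads were assigned to near-identical copies than to the gene itself. A copy here is another gene, mostly an annotated pseudogene, that shares over 50% of the 31-base words of the member's coding sequence. Such copies existed for 71 members, 33 members had no coding 31-base word of their own, and over all members the copies held 22.7% of the combined estimated counts. In these read counts a gene that is itself a member was not taken as a copy, so Rps27rt is left out for Rps27. Rps2 held 149 mean counts and its 15 copies 25231, or 99.4% of the pool. The share was 98.8% for Rps18, 97.2% for Rpl5, a carrier of 5S rRNA that restrains MDM2, 94.5% for Rps12, 94.4% for Rpl12 and 90.6% for Rpl3, a protein of the peptidyl transferase region. For Rpl10, which completes the 60S subunit, it was 70.4%. Levels of these genes are therefore uncertain, and with copies added 76 members exceeded 1000 TPM and the family took 22.3% to 27.7% of TPM.

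**Figure D1:**
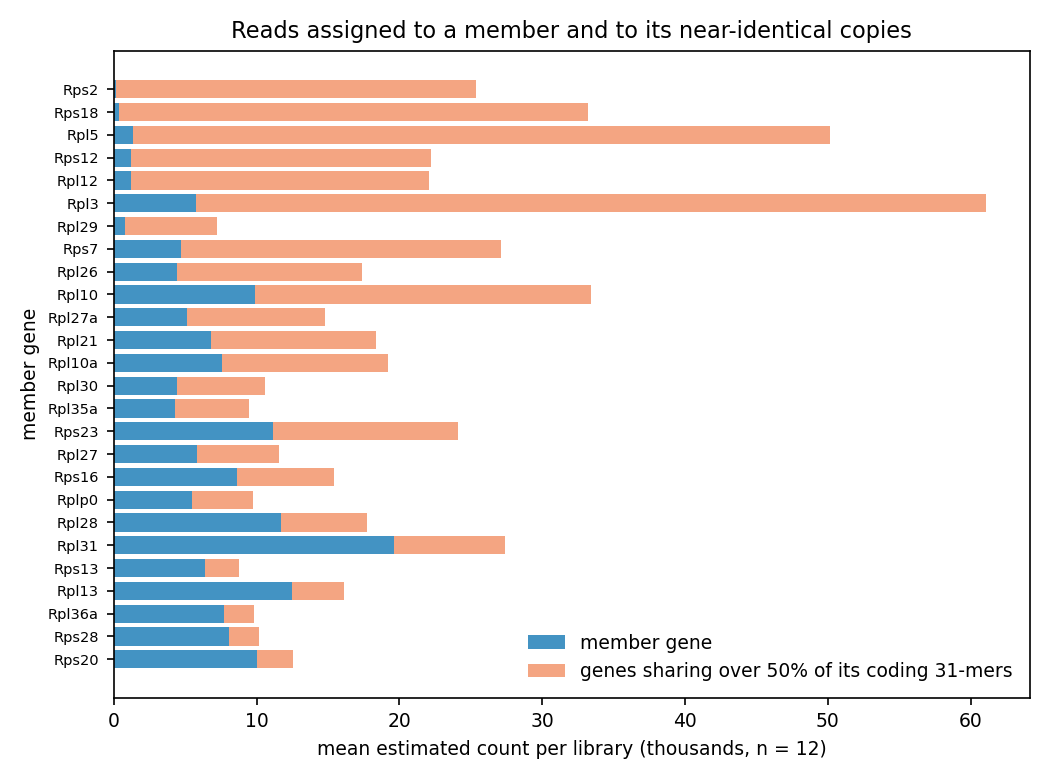
Mean estimated counts per library (horizontal axis, in units of 1000 counts, n = 12) for the 26 members with the largest share of combined counts on copies, ordered by that share. Members were not taken as copies of each other, so Rps27 is not shown. Blue bars are counts assigned to the member and orange bars those assigned to genes sharing over 50% of its coding 31-base words; for Rps2, Rps18 and Rpl5 nearly the whole bar is orange.

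Rps27 and the protein-coding retrogene Rps27rt show the same problem inside the family. Both windows below run from 10 bases before to 20 after the annotated start, with the pyrimidine tract in capitals.
Rps27 (chr3:90213629-90213658, minus strand): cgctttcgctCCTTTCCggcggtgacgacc
Rps27rt (chr9:114982720-114982749, minus strand): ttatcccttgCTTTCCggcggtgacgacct
Rps27rt was listed at 5153 to 7148 TPM and Rps27 at 38.0 to 237 TPM, and no coding 31-base word separates them. Rps27 had the largest spread of any member over the 12 libraries (SD of log2 counts 0.69), followed by Rpl7l1 (0.49) and Rpl12 (0.47), against a median of 0.25 over members and 0.35 over all tested genes. In ctrl-EVs number 3 Rps27 stood at 838 normalized counts, and in the other 11 libraries at 132 to 455. Rpl9 and Rpl36 also share nearly all of their words with other genes, with 6.5% and 5.95% of the words of their main transcript found in no other gene.

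A small part of the members' TPM was assigned to transcripts annotated as noncoding. Retained-intron, nonsense-mediated-decay and processed transcripts together took 8.64% ± 0.43 (SD, n = 12) of member TPM, and the range was 7.77% to 9.41%. For 60 members the share was under 10%, and for 12 it exceeded 50%, among them Rps16 at 94.7%, Rps20 at 88.2%, Rps7 at 84.5% and Rpl12 at 79.5%, which were chosen after their values were seen. Copies held more mean counts than the gene for Rpl12 and Rps7 (22392 against 4702 for Rps7) and fewer for Rps16 and Rps20 (2508 against 10022 for Rps20). Reads assigned to copies are not part of these shares, so the noncoding share of such genes is uncertain. In number 2 libraries the family's share was 9.0% ± 0.33 (SD, n = 4) and in the other 8 it was 8.47% ± 0.38, with ranges of 8.72% to 9.41% and 7.77% to 8.81% that overlap. No test was run on this share.

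The family differed between title numbers. Per library, the median over members of log2(normalized count + 1), taken as a deviation from each gene's own 12-library mean, was 0.21, 0.26, 0.31 and 0.31 in the number 2 libraries of ctrl-EVs and the 3 loaded groups. In the same order it was −0.063, −0.22, −0.16 and −0.079 in number 1. In number 3 it was 0.12, −0.21, −0.25 and −0.25. All 4 number 2 libraries were high and 7 of the others low, while ctrl-EVs number 3 lay above 0 and between both sets. The member share of TPM split the libraries alike, with 19.3% to 19.9% in number 2, 19.3% in ctrl-EVs number 3 and 16.2% to 17.6% in the other 7. In bulk RNA these shares are relative, and a shift in the cells' make-up cannot be told apart from a change in RNA per cell.

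**Figure D2:**
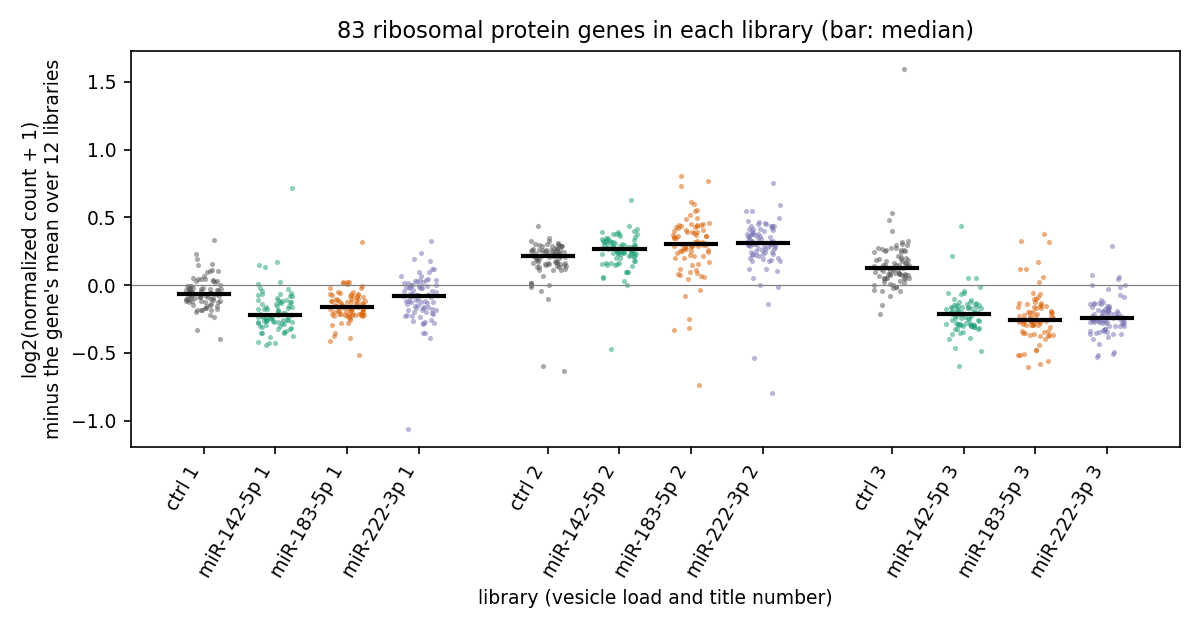
Each point is 1 of the 83 members in 1 library, drawn as the distance of log2(normalized count + 1) from that gene's 12-library mean (vertical axis), with libraries grouped by title number and coloured by vesicle load; bars are medians. The number 2 medians lie at 0.21 to 0.31, ctrl-EVs number 3 lies at 0.12, and the other 7 libraries lie between −0.25 and −0.063.

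ctrl-EVs number 3 also stood apart in how counts ran with gene length. Over genes outside the family, the slope of the deviation on log2 gene length was −0.11 there, that is, shorter genes were higher, and between −0.030 and 0.060 in the other 11 libraries. At the lengths of the members this library's trend amounted to 0.053 log2 units, beside a member median of 0.12, and after each library was corrected for its trend the median was 0.083. Its GC slope was also the highest, 0.15 per 10 points of GC content against −0.089 to 0.054 elsewhere. The number 2 libraries had length slopes of 0.024 to 0.060. At the lengths of the members their trends amounted to 0.0073, 0.018, −0.043 and 0.016 log2 units, in the order of the groups, and the correction changed their member medians from 0.21, 0.26, 0.31 and 0.31 to 0.20, 0.24, 0.35 and 0.30.

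**Figure D3:**
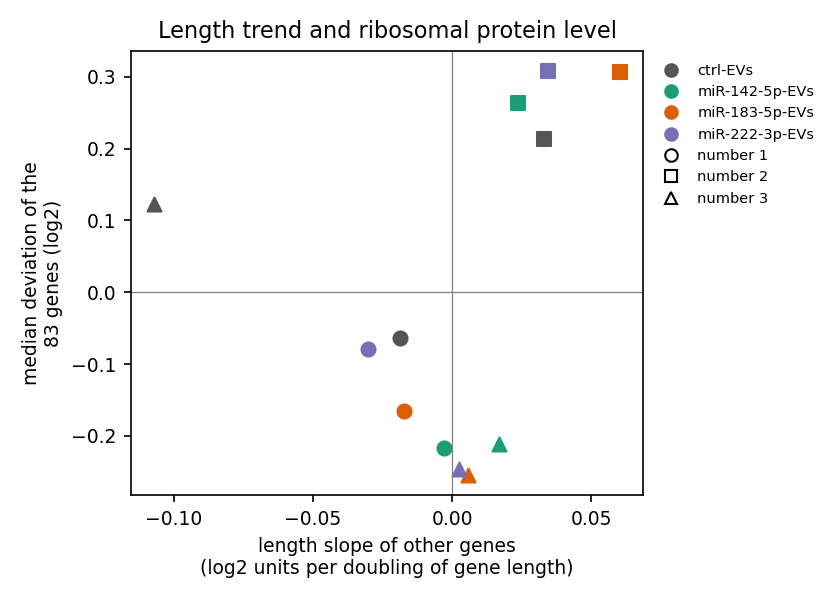
Each point is a library; the horizontal axis is the slope of the deviation on log2 gene length over genes outside the family (log2 units per doubling of length) and the vertical axis the median deviation of the 83 members, with colour for vesicle load and shape for title number. ctrl-EVs number 3 sits alone at a slope of −0.11, and the 4 number 2 libraries share positive slopes and medians of 0.21 to 0.31.

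Most members were higher in number 2 than in numbers 1 and 3. With group in the model, DESeq2 (two-sided Wald test, Benjamini-Hochberg adjusted p under 0.05 over 13880 genes) called 75 of 83 members, 74 higher and 1 lower, where 64.3% of all tested genes were called, 32.2% higher and 32.2% lower. The median log2 fold change was 0.42, or 1.33-fold, over the members and 0.0068 over all genes. Of small subunit members 28 of 31 were called, of large subunit members 43 of 46, all of them higher, and of relatives 4 of 6. For 51 members every number 2 library exceeded every other library, against 20.3% of all genes, and for 1 every number 2 library was lower, against 21.1%. Without ctrl-EVs number 3 the test called 77 members, 76 of them higher, and the median was 0.45. Number 2 libraries were also the shallowest, and their part in the result was not tested.

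**Figure D4:**
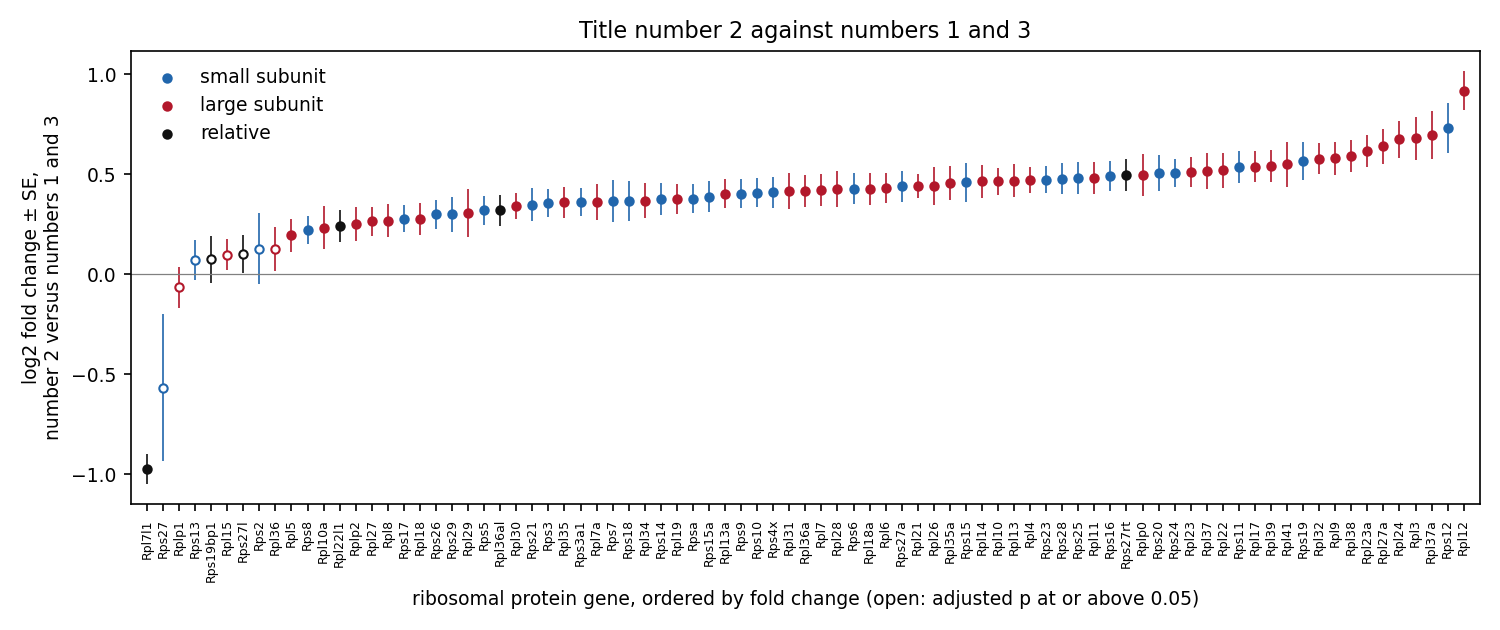
Log2 fold change ± SE of number 2 against numbers 1 and 3 (vertical axis, DESeq2, 4 against 8 libraries) for the 83 members in order of size, with filled points for adjusted p under 0.05 and colours for subunit. The 74 filled points above 0 run from Rpl5 at 0.20 to Rpl12 at 0.92, and Rpl7l1 at −0.97 is the single filled point below 0.

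Rpl7l1, a relative of Rpl7 found in ribosome assembly intermediates, was the exception. It had 1061, 1102, 1219 and 1325 normalized counts in the number 2 libraries and from 2070 through a median of 2299 to 2567 in the other 8, with no overlap. Its log2 fold change was −0.97 ± 0.075 (SE) with a DESeq2 adjusted p of 9.64e-37. Rpl7 itself, a large subunit protein near 5S rRNA, had 51984, 54728, 57359 and 61533 normalized counts in the number 2 libraries and from 36007 through a median of 43592 to 49489 in the other 8, and its fold change was 0.42 ± 0.078 (SE) (DESeq2 adjusted p = 2.40e-07). Within a library the log2 ratio of Rpl7l1 to Rpl7 lay between −5.80 and −5.37 in number 2 and between −4.51 and −3.90 elsewhere. The difference was −1.40 (exact permutation of numbers within groups, two-sided, p = 0.0123, adjusted p = 0.0288 over 7 ratios). That p is the smallest that 81 arrangements allow. The permutation took the 4 groups as independent, though same-numbered libraries deviated together. Its p-values, here and for the ratios below, may be too small.

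Among members above the others in number 2, Rpl12, a protein at the base of the stalk, came first. It had 1504, 1853, 1999 and 2027 normalized counts in the number 2 libraries and from 853 through a median of 989 to 1049 in the other 8, with no overlap, and a log2 fold change of 0.92 ± 0.10 (SE) (DESeq2 adjusted p = 2.46e-20). Most reads of this gene sit on its 3 copies. With those added the fold change was 0.27 ± 0.077 (DESeq2 adjusted p = 9.42e-04), an alternative chosen after the data were seen. The pooled reads kept the length offset of Rpl12 itself. The transcripts of Rpl12 itself were 87.6% noncoding by TPM in number 2 and 75.4% elsewhere. Rps12, a small subunit protein, had a fold change of 0.73 ± 0.12 (SE) and 0.41 with copies. Rpl3 had 0.68 ± 0.11 (SE) and 0.59 with copies. The other 2 of the 5 largest, Rpl37a and Rpl24, have almost no reads on copies, with fold changes of 0.70 ± 0.12 (SE) and 0.67 ± 0.093 (SE).

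Rpl37a, a small zinc-finger protein of the large subunit, had 10491, 11967, 14274 and 16198 normalized counts in the number 2 libraries and from 6438 through a median of 8888 to 9527 in the other 8. Rpl38 had 9128, 9141, 9695 and 9746 normalized counts in the number 2 libraries and from 5644 through a median of 6270 to 7437 in the other 8, and its fold change was 0.59 ± 0.08 (SE) (DESeq2 adjusted p = 1.06e-12). Both genes showed no overlap between number 2 and the rest. Rps24, the most abundant member and a gene mutated in Diamond-Blackfan anaemia, had 37636, 38301, 41277 and 41278 normalized counts in the number 2 libraries and from 25932 through a median of 27352 to 32944 in the other 8, also without overlap, and a fold change of 0.51 ± 0.072 (SE). Rps19, the gene most often mutated in that anaemia, had 0.56, and Rpl11, which binds MDM2 together with Rpl5, 0.48; Rpl5 stood at 0.20. Rpl5 is one of the genes whose reads sit on copies, and with them it was at 0.49.

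Other members with known roles moved alike. Rps6 had a log2 fold change of 0.43, Rpsa, also known as the laminin receptor precursor, 0.38, Rps3, a protein of the mRNA entry channel, 0.36, Rps4x 0.41 and Rps14 0.38. Rps27a, made as a fusion with ubiquitin, had 0.44, Rpl13a, the target of interferon-induced release from the ribosome, 0.40, and Rpl23, another MDM2 binder, 0.51. The exit-tunnel protein Rpl39 had 0.54, Rpl10 0.46 and Rpl41, the smallest ribosomal protein, 0.55. All of these were called higher in number 2 with DESeq2 adjusted p between 1.06e-05 and 1.05e-11.

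The stalk proteins, which recruit translational GTPases, did not share 1 level. Rplp0 had 6476, 6604, 7038 and 7334 normalized counts in the number 2 libraries and from 3597 through a median of 4841 to 6587 in the other 8, with a log2 fold change of 0.50 ± 0.10 (SE) (DESeq2 adjusted p = 6.08e-06), and Rplp2 had 0.25 ± 0.085 (SE) (adjusted p = 0.00615). Rplp1 had 17995, 20476, 24743 and 25054 normalized counts in the number 2 libraries and from 19078 through a median of 23583 to 27256 in the other 8, and its fold change of −0.066 ± 0.10 (SE) was not called (adjusted p = 0.585). The ranges of Rplp1 overlap. The log2 ratio of Rplp1 to Rplp0 within a library was 1.67 ± 0.30 (SD, n = 4) in number 2 and 2.23 ± 0.25 (n = 8) elsewhere, a difference of −0.56 (exact permutation p = 0.0123, adjusted p = 0.0288 over 7 ratios). For Rplp1 to Rplp2 the difference was −0.32 (exact permutation p = 0.0247, adjusted p = 0.0432), and for Rplp2 to Rplp0 −0.24 (exact permutation p = 0.284, adjusted p = 0.331). A copy gene held 43.8% of the pooled Rplp0 counts, and with it Rplp0 was at 0.39.

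The relatives ran from −0.97 for Rpl7l1 to 0.49 for Rps27rt. Rpl22l1, a paralogue whose level RPL22 is known to restrain, had a log2 fold change of 0.24 ± 0.079 (SE) and Rpl22 0.52 ± 0.086 (SE); the difference of their ratio was −0.28 (exact permutation p = 0.0864, adjusted p = 0.121). Rpl36al and Rpl36a, 2 genes for nearly the same protein, had 0.32 ± 0.077 (SE) and 0.42 ± 0.079 (SE), and their ratio differed by −0.10 (exact permutation p = 0.383, adjusted p = 0.383). The p53-inducible Rps27l had 0.10 ± 0.094 (SE) and was not called (adjusted p = 0.35), while Rps27rt had 0.49 ± 0.08 (SE). The log2 ratio of Rps27l to the sum of Rps27 and Rps27rt differed by −0.37, from −2.59 to −2.96 (exact permutation p = 0.0123, adjusted p = 0.0288). Rps19bp1 had 0.073 ± 0.12 (SE) (adjusted p = 0.595).

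The remaining 8 members were not called: Rps27 (−0.57), Rplp1, Rps13 (0.07), Rps19bp1, Rpl15 (0.10), Rps27l, Rps2 (0.13) and Rpl36 (0.13). With copies added, Rps2 was at 0.45 ± 0.13, Rps13 at 0.34 ± 0.073 and Rpl15 at 0.18 ± 0.076 (SE), all then called higher (DESeq2 adjusted p = 7.07e-04, 8.90e-06 and 0.0297), and the count for the family became 78, where 64.3% of all genes were called. Scaling by total counts in place of the median of ratios lowered the median of all genes to −0.17 and that of members to 0.24, and 59 members were called, 57 higher and 2 lower, where 64.9% of all genes were called, 3134 higher and 5880 lower. The second lower call there was Rplp1, at −0.24.

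Genes outside the symbol rule were read with the same test, in which 32.2% of all genes were higher and 32.2% lower. Among ribosomal proteins it misses, Fau and Rack1 were higher in number 2, with log2 fold changes of 0.34 and 0.33. Of 19 other TOP mRNAs, mainly translation factors, 15 were higher and 0 lower, led by Eif3f (0.79), Eif4b (0.66) and Eif3e (0.56), and the list's median was 0.45. Of 68 ribosome biogenesis genes 15 were higher and 30 lower, with a median of −0.11. The largest changes there were Imp4 (−1.49), of the U3 processome, Taf1b (−1.18), of the RNA polymerase I selectivity factor, and Bop1 (−1.13), of the PeBoW complex. All 6 dedicated chaperones of ribosomal proteins were called, 5 of them lower, led by Grwd1 (−1.13), a chaperone of RPL3, Pdcd2 (−1.06), of RPS2, and Heatr3 (−1.02), of RPL5. Of 16 regulators of TOP translation 7 were higher and 3 lower, led by Tsc1 (0.89), Akt1s1 (−0.86) and Eif4e (0.74). With total-count scaling, where 3134 of all 13880 genes were higher and 5880 lower, these splits were 12 and 1 for the TOP mRNAs, 10 and 45 for biogenesis, 1 and 5 for the chaperones and 5 and 7 for the regulators.

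Cell type markers were read with the same test, in which 32.2% of all genes were higher and 32.2% lower. Of 7 macrophage markers, Csf1r (−1.27) and Spi1 (−0.94) were lower in number 2 and Adgre1 (0.69) and Cd68 (0.41) higher. The endothelial markers Tek and Vwf were lower, at 0.313 against 15.1 and 88.3 against 160.4 normalized counts. Tek had no more than 30 estimated counts in any library. It passed the count filter only through numbers 1 and 3, so its lower level in number 2 is no independent result. The part of these markers in the family's difference was not tested.

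Between numbers 1 and 3 the family as a whole showed little shift. DESeq2 called 7 members, 4 higher in number 1 and 3 lower, where 23.5% of all genes were called (13% higher, 10.5% lower), and the median log2 fold change was 0.0057 over members and −0.0075 over all genes. Higher in number 1 were Rpl41 at 0.44 ± 0.13 (SE) (DESeq2 adjusted p = 0.00662), Rpl36a at 0.28 ± 0.092 (SE), Rpl7 at 0.27 ± 0.09 (SE) and Rpl23a at 0.24 ± 0.094 (SE). Lower were Rps13 at −0.46 ± 0.12 (SE) (adjusted p = 8.39e-04), Rps19bp1 at −0.40 ± 0.13 (SE) and Rplp2 at −0.28 ± 0.10 (SE). Total-count scaling gave 12 calls, 3 higher and 9 lower, where 25.2% of all genes were called, 1353 higher and 2149 lower.

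Rpl41 had 13219, 13689, 13808 and 15322 normalized counts in number 1 of ctrl-EVs and the 3 loaded groups, and 13435, 8997, 9523 and 9536 in number 3. Only the control library of number 3 reached the range of number 1. Without ctrl-EVs number 3 the test called 25 members, 23 higher in number 1, with a median of 0.10 where 27.2% of all genes were called. Rps13 (in the 40S body) had 6140, 4597, 4366 and 6055 in number 1 and 7801, 6461, 8117 and 6570 in number 3, and these do not overlap; it was 1 of 2 members fully lower in number 1, with Rps19bp1, against 12.0% of all genes, and 0 were fully higher, against 13.2%. In the control group 80 of 83 members were higher in number 3 than in number 1, and in the loaded groups 38, 25 and 19 were. The likelihood ratio test among the 3 numbers called 76 members, where 69.6% of all genes were called.

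No member was called between a loaded vesicle group and control vesicles. DESeq2 without the number in the model called 0 of 83 members for each of the 3 loaded groups and for all 3 together against ctrl-EVs, where 0.0072%, 0.0%, 0.0% and 0.0% of all genes were called, and 0 members had an unadjusted p under 0.05. edgeR called 0 members as well. A likelihood ratio test over the 4 groups called 0 members and 0.0072% of genes, and with the block 0 members and 0.0865%. With the replicate block, that is, the title number as a term, the calls were again 0 in each comparison, where 0.0576%, 0.411%, 0.036% and 0.627% of genes were called. An unadjusted p under 0.05 was then found for 8, 12, 1 and 16 members, and by edgeR with the block for 6, 10, 2 and 15. Over all 13880 genes the same threshold was passed by 816, 1404, 908 and 1476 genes in DESeq2 and by 892, 1488, 985 and 1558 in edgeR. The lowest DESeq2 adjusted p of a member with the block was 0.764, 0.143, 0.699 and 0.170.

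Members with libraries wholly apart from control were few, near the shares over all genes. No member was higher in all loaded libraries of a group, against 1.47%, 1.69% and 1.48% of genes in the loaded groups and 0.173% for all 3 together. Wholly lower members numbered 1, 1, 0 and 0, against 1.21%, 1.45%, 1.2% and 0.122%. In miR-142-5p-EVs this was Rpl29, at 733 to 781 normalized counts against 815 to 862, a gene with 89.5% of pooled counts on copies. In miR-183-5p-EVs it was Rplp1, at 19643, 17995 and 24555 in numbers 1 to 3 against 26455, 24743 and 27256, with a log2 fold change of −0.34 ± 0.17 (SE; DESeq2 adjusted p = 1.0) and −0.34 ± 0.14 with the block (adjusted p = 0.263). Rpl29 was chosen after its values were seen.

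The estimates themselves lay below control. The median log2 fold change over members was −0.14, −0.099 and −0.084 in the loaded groups and −0.11 for all 3, where that of all genes was 0.0092, 0.0088, 0.012 and 0.0093. With the replicate block the medians were −0.16, −0.12, −0.11 and −0.13. These comparisons share the control libraries. Without ctrl-EVs number 3 and with the block they were −0.028, 0.0032, 0.0057 and −0.013, so leaving out this library turned the direction for the second and the last loaded group. Without the block, leaving out number 3 of either of these groups also turned it, to 0.0027 and 0.022. Without ctrl-EVs number 2 and with the block 4, 4, 0 and 14 members were called, all lower than control, where 0.439%, 0.555%, 0.288% and 1.03% of genes were called, with medians of −0.26, −0.23, −0.21 and −0.23. The members called there were Rpl10a, Rps19, Rpl18 and Rpl14 for miR-142-5p-EVs and Rplp0, Rps7, Rpl13 and Rpl14 for miR-183-5p-EVs.

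The sign differed between numbers. Against the control library of the same number, the member median was −0.16, −0.085 and −0.051 for the loaded groups in number 1. In number 2 it was 0.066, 0.12 and 0.12, with 18, 17 and 11 of 83 members below control. In number 3 it was −0.34, −0.36 and −0.35, with 82, 81 and 82 members below control. After the length correction the number 3 values were −0.27, −0.31 and −0.29. All 3 differences of a number share 1 control library.

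**Figure D5:**
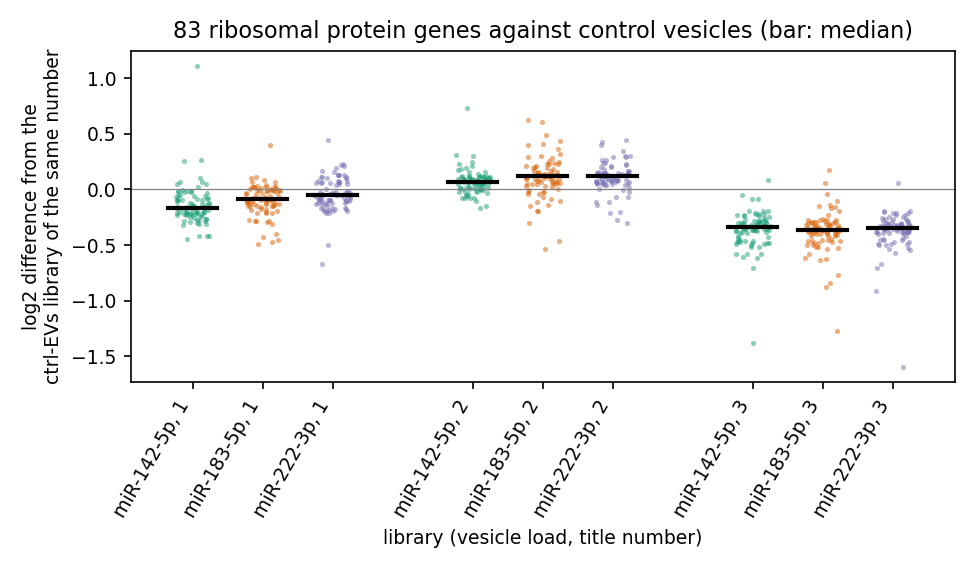
Log2 difference of each of the 83 members from the control library of the same title number (vertical axis), for each vesicle load and number (horizontal axis); bars are medians. Medians in number 3 lie between −0.36 and −0.34, in number 1 between −0.16 and −0.051, and in number 2 between 0.066 and 0.12.

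The mimics act through their seed, bases 2 to 8, so the 3′ UTRs of the members were searched for its complement. The mature mouse sequences (RefSeq, GRCm38.p6) are given 5′ to 3′ with the seed in capitals, since they define the sites counted; the 3 seeds differ. The mimics' own sequences were not used here.
mmu-miR-142a-5p (chr11:87756867-87756887, plus strand): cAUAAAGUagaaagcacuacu
mmu-miR-183-5p (chr6:30169711-30169732, minus strand): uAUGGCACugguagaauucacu
mmu-miR-222-3p (chrX:19146901-19146923, minus strand): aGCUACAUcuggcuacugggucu

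Sites were rare. Only the most abundant protein-coding transcript of each gene was searched. For Rpl10, Rpl13a, Rps15a and Rps24 that transcript has no annotated 3′ UTR, so these members could show no site. The members' 3′ UTRs had a median length of 64 bases against 854 for tested genes. ACTTTAT, the miR-142-5p site, occurred in 2 of 83 members (2.41%, 13.3% of genes), GTGCCAT, the miR-183-5p site, in 1 (1.2%, 8.52%) and ATGTAGC, the miR-222-3p site, in 0 (8.99% of genes). The 3 sites are shown in their 3′ UTR context, with the match in capitals.
Rpl22l1 (chr3:28807372-28807401, plus strand): atataaaattggACTTTATgagaaaataaa
Rps25 (chr9:44410165-44410189, plus strand): tggaaaaataaaACTTTATtgaatc
Rplp0 (chr5:115563657-115563686, plus strand): tctcttgacttgGTGCCATagctagtctgg

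Rplp0 holds the miR-183-5p site, and many of its pooled reads sit on a copy gene. Over the 1115 tested genes with this site, the median log2 fold change in miR-183-5p-EVs was 0.054, and 0.040 with the block. An effect of the site was not tested. Rplp0 stood at 4283, 7038 and 3597 normalized counts in miR-183-5p-EVs numbers 1 to 3 and at 5869, 6604 and 6587 in ctrl-EVs. The miR-183-5p library of number 2 was above all 3 controls and the other two below them. The log2 fold change was −0.35 ± 0.28 (SE), with a DESeq2 adjusted p of 1.0, and −0.42 ± 0.14 with the block (adjusted p = 0.143). Without ctrl-EVs number 2 and with the block it was −0.59 ± 0.13 and was called (DESeq2 adjusted p = 0.00394). Leaving out each library in turn moved the value between −0.69 and −0.17 without the block and between −0.59 and −0.24 with it. In miR-142-5p-EVs it was −0.27 ± 0.14 and in miR-222-3p-EVs −0.21 ± 0.14 with the block, and differences between these were not tested. Rpl22l1, with a miR-142-5p site, had −0.24 ± 0.11 in miR-142-5p-EVs with the block (DESeq2 adjusted p = 0.801), and Rps25 −0.11 ± 0.11 (adjusted p = 0.96). The wider lists gave 0 calls in these comparisons too. None of the 19 TOP mRNAs, 68 biogenesis genes, 6 chaperones or 16 regulators was called by DESeq2 with or without the block. For all loaded vesicles together with the block, 0, 5, 1 and 4 of them had an unadjusted DESeq2 p under 0.05. Of all 13880 genes, 1476 had one.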

How the data were processed

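Per the labels and methods, poly(A) RNA libraries were quantified by the authors with Salmon against Ensembl mouse transcripts, and the deposited files hold an estimated count and a TPM for each transcript of each library; the labels' build field names another organism's build, so the annotation release is uncertain. No column was left unused. Of 118783 transcripts listed, 98.3% matched GENCODE vM21 (GRCm38) and were summed to 35944 genes; the 13880 genes that reached 10 counts in 3 or more libraries were tested. Counts were rounded and tested with DESeq2 1.42.0 (R 4.3.3) with an offset for transcript length, in a model of the 4 groups, or of group and title number; edgeR 4.0.16 was an alternative. Normalized counts were divided by size factor and length offset. Adjusted p-values that DESeq2 left undefined stayed undefined. Ratios of members were compared by two-sided exact permutation of numbers within groups, a test of 7 ratios added after the data were seen. Same-numbered libraries deviated together, so the 4 groups are not independent and these p-values may be too small. On simulated counts for 13880 genes, the test of miR-142-5p-EVs against ctrl-EVs recovered 92% of log2 changes of 1 with or without the block. Of changes of 0.5 it recovered 49% with the block and 53% without. The test of number 2 recovered 96% and 76% of these sizes, and each made 23 to 33 false calls. Apart from the changes put in, the simulation held no difference between numbers, and its spread came from the fit with the block. In the data 64.3% of genes were called for number 2, so the recovery without the block does not carry over to them.

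Whether the numbers pair the samples was checked on the data, since no source says so: deviations from the group means of same-numbered libraries correlated at 0.41 to 0.80 in all 18 pairs (13880 genes), so the fit with the number as a block is given beside the fit without it. The members and gene lists were chosen with earlier results of these data known. Genes named are members with set roles or paralogues, the largest called changes, the highest and lowest by TPM, the most variable and those with fewest 31-base words of their own, and up to 3 called genes of each other list. Estimated counts spread shared reads by a model, so values of members with near-identical copies are uncertain. Total counts per library limit precision for counting error only. Alternatives covered the tool, the filter, the offset, the scaling, length and GC corrections, copies added to members and leaving out each library. Reads of added copies took the length offset of the member, and values with copies depend on it. A gene of the lists is not reported here.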

Additional observations from a re-analysis of the deposited data

Results flagged for a closer look

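Within title number 3, ctrl-EVs number 3 lay far from the other 3 libraries, by Dixon's test of a gap against the whole range of 4 samples. This held for its member median deviation of 0.12 and for its member share of TPM of 19.3%. It also held for 14 named members, all highest in that library, in normalized counts. Among large subunit members these were Rpl7 at 43804, Rpl11 at 18772, Rpl23a at 24593, Rpl32 at 28057, Rpl36a at 7422, Rpl37a at 9343, Rpl38 at 7437 and Rpl41 at 13435. Among small subunit members they were Rps3 at 32704, Rps6 at 42253, Rps19 at 19802, Rps27 at 838 and Rpsa at 65490, and among relatives Rpl36al at 5105. In number 1, Rps4x stood apart in miR-142-5p-EVs at 29072. In all, 15 of 123 tested sets of 4 libraries (12.2%) were marked for named members, and 14 of these marks fell on ctrl-EVs number 3. For a single set chance marks about 1 in 20. The share cannot be compared with that rate, because the sets reuse the same libraries and are not independent. Some members were also named for their large changes or spread in these data.

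The difference of the member median from the control library of the same number took opposite signs by number. In number 1 it was −0.16, −0.085 and −0.051 for the loaded groups in the order of the report, in number 2 it was 0.066, 0.12 and 0.12, and in number 3 −0.34, −0.36 and −0.35. The difference between numbers was not tested, and the 3 values of a number share 1 control library.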

How the results depend on the processing

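With the replicate block, 0 members were called in every group comparison, as without it. Leaving out 1 library in turn with the block gave 0 to 4 members called for miR-142-5p-EVs, 0 to 4 for miR-183-5p-EVs, 0 for miR-222-3p-EVs, 0 to 14 for all 3 loads together and 0 to 2 for the likelihood ratio test. Besides ctrl-EVs number 2, the libraries whose removal gave calls were miR-142-5p-EVs number 2 (1 for its own group, 2 for all loads, 1 for the likelihood ratio test) and miR-183-5p-EVs number 3 (1). Between numbers 1 and 3 the count of 7 ranged from 1 to 25, highest without ctrl-EVs number 3 and lowest without miR-183-5p-EVs number 3, and total-count scaling gave 12. For number 2, total-count scaling lowered the member median to 0.24 and turned Rpl36 (−0.048), Rps13 (−0.11), Rps19bp1 (−0.11), Rps2 (−0.052) and Rps27l (−0.078). The length correction put Rpl36 at −0.00025. Adding copies put Rps27 at 0.046 (over 90% shared) and 0.048 (over 50% of coding words, chosen after seeing the data). There the reads of Rps27 and Rps27rt were pooled. The same pool with the length offset of Rps27rt gave 0.48 (over 50% of coding words), so the values for Rps27 rest on its own offset. Leaving out 1 library in turn moved Rpl36 between −0.020 and 0.21, Rps13 between −0.031 and 0.14 and Rplp1 between −0.22 and 0.0086. The cause was not tested. By estimated counts the member share was 6.70% and the noncoding share 8.03%, and with coding copies the TPM share was 24.97%. Of the values for single genes, 1010 kept their side and direction, 52 lost a call, 7 gained one and 11 changed sign. Of the values for comparisons, 409 moved by less than their limit or not at all, and 20 moved by more. For member medians of group comparisons the limit was 0.26 log2 units. This is larger than the medians themselves, so a median that changed sign could count as unmoved. A fit of only the compared groups is the same fit for all loads together and was not run again.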
